A study of Mus musculus with 6 samples.

Results

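The left ventricle and the brain of the same mouse model were compared across all genes, as 2 left ventricle libraries against 4 brain libraries, 2 of them from hippocampus and 2 from prefrontal cortex (PFC). Male C57BL/6 mice (substrain C57BL/6N by the study's methods) had either a permanent ligation of the left anterior descending coronary artery, which led to myocardial infarction (MI) and chronic heart failure (CHF), or a sham thoracotomy, and tissue was taken 8 weeks after the operation. For each tissue the RNA of 3 CHF mice was mixed into 1 pool and that of 6 sham mice into another, and every pool gave 1 library, so that the 6 libraries of the series are all used here. Genes with at least 100 unique gene reads in at least 2 of the 6 libraries entered the comparison, which left 13270 of 35485 features. A tissue is thus represented by 1 CHF and 1 sham pool. The spread within a tissue holds the effect of heart failure together with the differences between pools, and the p-values measure only that spread.

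Heart muscle cells are filled with sarcomeres, contract in response to calcium released from the sarcoplasmic reticulum and draw most of their energy from the oxidation of fatty acids in densely packed mitochondria. Neurons transmit signals through ion channels and vesicle release at synapses, and the surrounding glia supply myelin and clear transmitters. Both tissues rely on many of the same protein families, and gene duplication has left vertebrates with several members (paralogs) of most of them. A family can keep one member for striated muscle and another for the nervous system, as the creatine kinases do. The comparison therefore asked which genes set the left ventricle apart from brain, and which paralog pairs switched from one member to the other.

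The promoters of paralogs are printed for creatine kinase and for subunit 8 of cytochrome c oxidase, since these families showed the muscle and brain members in clear opposition. The 250 bases before the annotated start are from RefSeq on GRCm38.p6, 5' to 3' in the direction of the gene: Ckm (chr7:19410844-19411093, plus strand), Ckb (chr12:111672339-111672588, minus strand), Cox8b (chr7:140900447-140900696, minus strand) and Cox8a (chr19:7217617-7217866, minus strand). Capitals mark TATAAA, the TATA box, and CAGCTG, an E-box of the kind bound by basic helix-loop-helix factors. Both were searched on both strands, and CAGCTG is its own reverse complement.
Ckm: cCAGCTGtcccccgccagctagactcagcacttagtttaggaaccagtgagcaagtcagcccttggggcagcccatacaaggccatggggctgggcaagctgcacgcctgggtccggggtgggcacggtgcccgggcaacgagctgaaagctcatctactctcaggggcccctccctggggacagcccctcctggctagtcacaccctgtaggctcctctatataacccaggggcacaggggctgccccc
Ckb: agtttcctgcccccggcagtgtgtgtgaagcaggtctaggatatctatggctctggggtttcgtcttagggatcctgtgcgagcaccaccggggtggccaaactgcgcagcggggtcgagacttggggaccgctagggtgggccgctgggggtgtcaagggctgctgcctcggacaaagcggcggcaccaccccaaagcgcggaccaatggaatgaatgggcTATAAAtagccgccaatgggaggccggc
Cox8b: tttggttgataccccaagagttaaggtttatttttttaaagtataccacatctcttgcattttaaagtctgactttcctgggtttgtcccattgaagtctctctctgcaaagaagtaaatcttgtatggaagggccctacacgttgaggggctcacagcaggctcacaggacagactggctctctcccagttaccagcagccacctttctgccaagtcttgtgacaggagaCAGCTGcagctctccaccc
Cox8a: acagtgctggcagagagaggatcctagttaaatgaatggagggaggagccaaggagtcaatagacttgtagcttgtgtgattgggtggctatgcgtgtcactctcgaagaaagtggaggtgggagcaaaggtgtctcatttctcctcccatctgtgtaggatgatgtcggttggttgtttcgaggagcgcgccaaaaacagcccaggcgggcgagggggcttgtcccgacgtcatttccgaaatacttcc
Of the windows shown, Ckm and Cox8b held CAGCTG, Ckb held TATAAA and Cox8a held neither. The Ckm window also holds tatataa near its end, a similar run of letters that an exact search for TATAAA does not match. Over windows of 300 bases (250 before and 50 after the start), the dinucleotide CpG occurred 7 times for Ckm and 2 times for Cox8b, against 22 times for Ckb and 19 times for Cox8a. CAGCTG was present in 14 of 36 heart members with a RefSeq window (38.9%) and in 8 of 32 brain members (25.0%) of the 46 paralog pairs that switched between the tissues, against 18.7% of 9253 tested genes and 18.3% of all 27025 genes with a window. TATAAA was present in 4 of 36 heart members (11.1%) and 6 of 32 brain members (18.8%), against 8.73% of tested and 15.7% of all genes. GGGCGG, the GC box, was present in 17 heart members (47.2%) and 19 brain members (59.4%), against 70.0% of tested and 38.2% of all genes. The median number of CpG per window was 12 in heart members and 21 in brain members, against 22 in tested genes. A gene was counted when any of its windows held the motif, and heart members, brain members and tested genes had 1.33, 1.41 and 1.30 windows on average. These matches describe the letters in the windows.

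A library held 15693919 to 25863685 unique gene reads. Values are given on the counts-per-million scale (CPM), from unique gene reads and library sizes after scaling by trimmed mean of M-values (TMM). Paired left ventricle values are listed as CHF, then sham, and brain values in the order hippocampus CHF, hippocampus sham, PFC CHF, PFC sham. Fold changes are on the log2 scale, left ventricle minus the mean of hippocampus and PFC, and are followed by their standard error (SE). A gene was called higher in one tissue when edgeR's quasi-likelihood test gave a Benjamini-Hochberg adjusted p under 0.05 and the log2 fold was 1 or more in size. The 10 largest features took 17.6% of reads in the CHF and 28.0% in the sham left ventricle, against 4.12% to 4.95% in brain. In left ventricle 1 of them, the second of the features named Myo3a, took 8.87% and 15.0%. The common coefficient of variation between pools of a tissue was 0.192. The names of the deposited files carry a different lane code for each tissue, while the study's methods describe several pools run together over more than one lane, so the lane of each library is not settled. If the codes hold, lane and tissue cannot be told apart. In the left ventricle, 3973 genes were called higher than in brain (29.9% of those tested), and 3903 were called higher in brain (29.4%). The median log2 fold of all tested genes was -0.03.

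The labelled tissues carried their own markers. Genes of heart muscle cells made up 6.36% and 8.31% of unique gene reads in the CHF and sham left ventricle and 0.0133% to 0.0167% in the brain libraries. Neuron markers made up 0.0107% and 0.0146% of unique gene reads in the CHF and sham left ventricle and 1.62% to 1.70% in the brain libraries. All 17 tested heart muscle markers were called higher in left ventricle and all 14 neuron markers higher in brain. Of the neuron markers, Gad2 and Slc32a1 had 0 reads in both left ventricle libraries, and each heart muscle marker had at least 1 read in brain. In 84.4% of all tested genes the left ventricle libraries did not overlap with the brain libraries in CPM. Pln was listed at 0 unique gene reads in every library, although its total gene reads, which include reads shared with other places in the genome, were 975 and 1856 in CHF and sham left ventricle against 3 to 7 in brain. Cpt1b was listed at 0 in the same way, with 592 and 665 total gene reads in left ventricle against 9 to 24 in brain, so that both were left out of the test. Why these genes had no unique reads was not tested. In bulk tissue, fewer cells of a type and less RNA per cell cannot be told apart.

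Among the called genes with at least 1000 reads in every library of the higher tissue, the 10 with the largest fitted log2 folds in the left ventricle are described first. Of these, 4 had 0 reads in brain, where the fitted fold depends on the prior count and a lower bound is given instead, so that other genes can exceed those bounds. Actc1, cardiac alpha-actin, the main actin of the thin filament, stood at 8059 and 9561 CPM in left ventricle, or 285720 reads, and had 1 read in all brain libraries together. Lmod2 stood at 679 and 773 CPM in left ventricle and at 0 CPM in all 4 brain libraries, and was at least 22445-fold higher in the left ventricle against a floor of 3 reads over the brain libraries. Lmod2 encodes leiomodin 2, which controls thin filament length. Ankrd1 had 4008 and 1402 CPM in left ventricle, against 0, 0.0423, 0.0515 and 0 CPM in brain. Of these 10 genes, this stress-responsive ankyrin-repeat protein was the 1 with a higher level in the CHF than in the sham left ventricle.

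The ventricular myosin light chains were also among the 10. Myl3 measured 3718 and 5661 CPM in left ventricle and 0, 0.0423, 0.206 and 0.128 CPM in brain. Myl2 was found at 2551 and 3985 CPM in left ventricle, compared with 0.472, 0.0846, 0.309 and 0.0427 CPM in brain. No brain library reached 1 CPM, and the log2 folds were 16.12 ± 0.43 and 13.83 ± 0.61. Csrp3 stood at 769 and 864 CPM in left ventricle and at 0.0363, 0, 0 and 0 CPM in brain. Csrp3 is a Z-disc protein with LIM domains. Myoz2 had 731 and 867 CPM in left ventricle, against 0.145, 0.0846, 0 and 0.0427 CPM in brain, and this calcineurin-binding protein of the Z-disc had a log2 fold of 13.70 ± 0.28. The Z-disc protein myotilin and the cardiac homeobox factor Nkx2-5 had 0 reads in all brain libraries. Myot measured 60.1 and 87.1 CPM in left ventricle and 0 CPM in all 4 brain libraries, and Nkx2-5 was found at 67.3 and 79.3 CPM in left ventricle, compared with 0 CPM in all 4 brain libraries. They were at least 2217-fold and 2258-fold higher in the left ventricle. The annotated but unnamed gene 2310002L09Rik stood at 59.7 and 90.4 CPM in left ventricle and had 0 reads in brain, at least 2251-fold higher in the left ventricle. The largest adjusted p among these 10 genes was 0.000102.

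In brain, the 10 genes chosen in the same way all had 0 reads in both left ventricle libraries. Rph3a was listed at 0 CPM in both left ventricle libraries and at 503, 510.4, 797 and 769.8 CPM in brain, and this Rab3-binding protein of synaptic vesicles was at least 6957-fold higher in brain. Cdk5r2, an activator of the neuronal kinase Cdk5, ranged from 371 to 689 CPM in brain and was at least 5499.9-fold higher in brain. Bounds of the same kind were 5339.6-fold for Syt13, 5261-fold for Pcsk1n, 5062-fold for Mpped1, 4286-fold for Grin1, 3885-fold for Sncb, 3884-fold for Nrsn1, 3476-fold for A930011O12Rik and 2609-fold for Kcnf1. Syt13 is an atypical synaptotagmin, Pcsk1n inhibits prohormone convertase 1, Grin1 is the obligatory subunit of the NMDA receptor, Sncb is beta-synuclein and Kcnf1 is an electrically silent potassium channel subunit. PFC exceeded hippocampus for Kcnf1, at 342 and 343 CPM against 140.0 and 159 CPM. For Grin1 the 4 brain libraries lay between 376 and 411 CPM. The largest adjusted p among the 10 was 1.10e-05. The bounds and counting intervals cover counting error only.

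Sarcomere genes were higher in the left ventricle throughout. All 10 genes of the thick filament and M-band, all 10 of the thin filament and all 14 of the Z-disc were called higher there, with median log2 folds of 12.01, 9.29 and 9.92 against -0.03 over all genes. Myh6 had 13235 and 32472 CPM in left ventricle, against 10.4, 9.69, 6.75 and 6.53 CPM in brain. This alpha-myosin heavy chain, the fast ventricular motor of the adult mouse, had the highest mean level of the thick filament list. Mybpc3 (13.24 ± 0.26) and Ttn (12.84 ± 0.39) followed Myl3 and Myl2 in the size of the fold, a myosin-binding protein and the giant spring titin. Myh7 measured 5725 and 1132 CPM in left ventricle and 2.69, 3.77, 4.48 and 4.83 CPM in brain, and the 2 left ventricle libraries of this slower beta-myosin differed more from each other than those of Myh6. Tpm1, the tropomyosin of the thin filament, had a log2 fold of 5.22 ± 0.23. Tnni3 (12.69 ± 0.41) and Tnnt2 (10.40 ± 0.33) encode the inhibitory and tropomyosin-binding subunits of cardiac troponin. Lmod3 was found at 76.9 and 139.6 CPM in left ventricle, compared with 0, 0, 0.0515 and 0.0854 CPM in brain, a ratio of 3187 with a 95% counting interval of 1089.7 to 15463.

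Des stood at 3021 and 2662 CPM in left ventricle and at 2.47, 2.16, 2.68 and 3.37 CPM in brain. Desmin, the intermediate filament of muscle, had the highest mean level of the Z-disc list. Xirp2 had 1382 and 605 CPM in left ventricle, against 0.145, 0.0846, 2.06 and 2.39 CPM in brain, and this actin-binding Xin repeat protein (log2 fold 10.89 ± 0.46) was higher in PFC than in hippocampus. Calcium release and uptake showed the same direction in 10 of 10 tested genes, with a median of 5.45. Atp2a2 measured 7164 and 16937 CPM in left ventricle and 636, 656, 773 and 753 CPM in brain. The SERCA2 pump encoded by this gene is also the housekeeping pump of the brain, and its log2 fold was 4.10 ± 0.37. Larger folds were seen for Trdn (11.86 ± 0.54), Hrc (11.33 ± 0.44), Casq2 (9.95 ± 0.23) and Jph2 (9.13 ± 0.21). These encode triadin, the histidine-rich calcium-binding protein, cardiac calsequestrin and junctophilin 2. The release channel Ryr2 (3.65) and the calcium channel pore Cacna1c (2.12) had smaller folds than Atp2a2.

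Fatty acid uptake and oxidation was higher in left ventricle in 20 of 21 tested genes (median 4.63). Lpl was found at 3080.2 and 6023 CPM in left ventricle, compared with 13.2, 15.1, 3.66 and 3.54 CPM in brain. Lipoprotein lipase releases fatty acids from circulating lipoproteins. Cd36 stood at 1253 and 2232 CPM in left ventricle and at 0.182, 0.381, 0.103 and 0.299 CPM in brain, and this fatty acid transporter had the largest fold of the list (12.79 ± 0.45), ahead of Lpl (9.31 ± 0.35). Acadm (6.04 ± 0.29) and Acaa2 (5.57 ± 0.40) catalyze the first and last steps of mitochondrial beta-oxidation. Slc27a1 had 168 and 394 CPM in left ventricle, against 187, 173, 137 and 165 CPM in brain. This fatty acid transport protein was the 1 gene without a call, with overlapping libraries (log2 fold 0.77 ± 0.33, adjusted p = 0.0761).

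Of 14 tested cardiac transcription factors and co-regulators, 12 were called higher in left ventricle, with a median of 4.44. Ankrd1 and Nkx2-5, described above, were 2 of them. Gata4 measured 226 and 244 CPM in left ventricle and 0, 0.0423, 0 and 0.0854 CPM in brain, a ratio of 7312 with a 95% counting interval of 2501 to 35464. Hand2 was found at 43.0 and 61.7 CPM in left ventricle, compared with 0 CPM in all 4 brain libraries, and was at least 1578-fold higher in the left ventricle. Mef2c stood at 103 and 113 CPM in left ventricle and at 36.0, 46.0, 202 and 196 CPM in brain. Mef2c acts in both muscle and neurons, and hippocampus lay below and PFC above the left ventricle (log2 fold 0.26 ± 0.13, adjusted p = 0.106). Mef2d had 171 and 263 CPM in left ventricle, against 317, 325, 327 and 337 CPM in brain, and its left ventricle libraries lay below brain without reaching a log2 fold of 1 (-0.59 ± 0.19, adjusted p = 0.0318). Prox1 also differed between brain regions, at 38.7 and 38.0 CPM in hippocampus against 4.64 and 5.55 CPM in PFC, all below the left ventricle at 45.8 and 88.8 CPM.

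Muscle RNA-binding proteins were called higher in left ventricle in 7 of 9 cases (median 3.61). Qk measured 441 and 627 CPM in left ventricle and 68.1, 87.4, 71.7 and 59.4 CPM in brain, the highest mean level of the list. Rbm20 (5.83 ± 0.31), Rbpms (5.11 ± 0.16), Fxr1 (4.23 ± 0.22) and Mbnl1 (3.90 ± 0.09) had the largest folds, among them Rbm20, which controls splicing of titin. Celf1 was found at 142 and 176 CPM in left ventricle, compared with 224, 213, 228 and 235 CPM in brain, and Ptbp1 stood at 25.8 and 15.7 CPM in left ventricle and at 15.0, 15.7, 12.8 and 13.8 CPM in brain. Neither of these splicing regulators was called, with log2 folds of -0.50 ± 0.12 and 0.55 ± 0.21. Of 88 distinct members of the heart lists, 83 were called higher in left ventricle, against 29.9% of all tested genes. A fit limited to the 8667 genes with 100 reads in all 6 libraries left out the members below that minimum. It called 42 members, and 2224 of all its genes, higher in left ventricle.

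**Figure D1:**
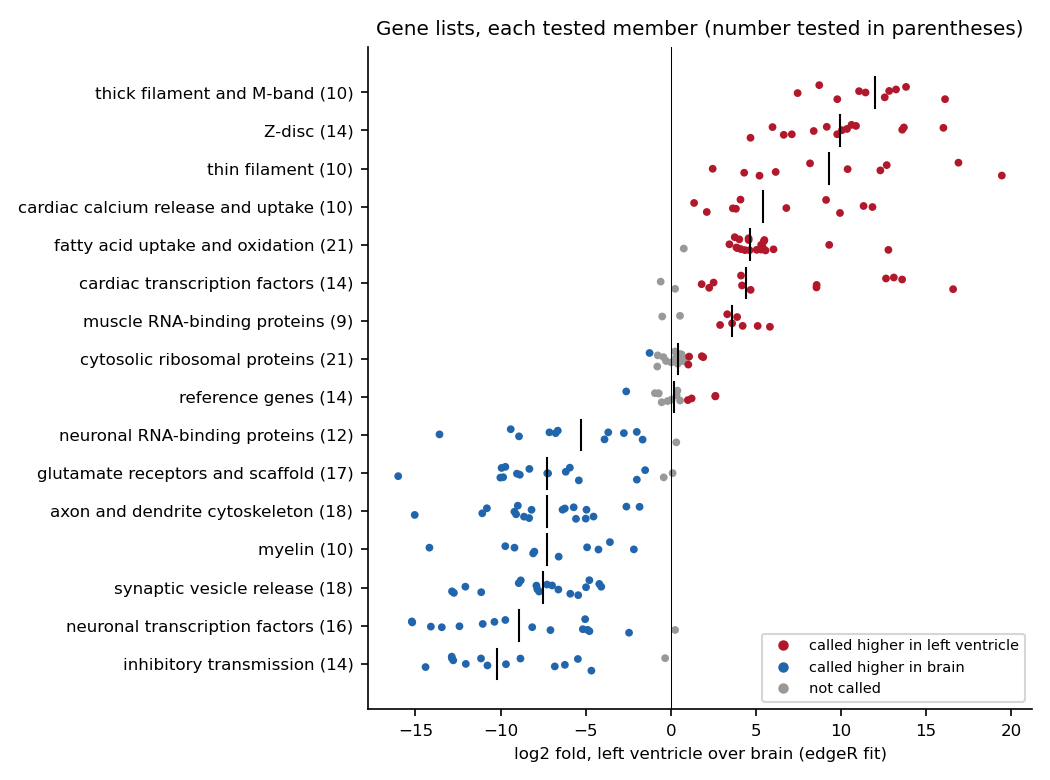
Log2 fold of left ventricle over brain (x axis, positive is higher in left ventricle) for the tested members of the 16 gene lists, 1 point per gene (red called higher in left ventricle, blue called higher in brain, gray not called), with a bar at the median of each list. Sarcomere lists sat at medians of 9.29 to 12.01 and the synaptic lists at -7.25 to -10.22, while ribosomal and reference genes had medians of 0.41 and 0.20.

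Synaptic genes were higher in brain. All 18 tested genes of synaptic vesicle release were called (median -7.50). Syp had 3.25 and 8.97 CPM in left ventricle, against 2403, 2912, 2843 and 2607 CPM in brain. Synaptophysin, a protein of the vesicle membrane, had the highest mean level. Snap25 (-12.85 ± 0.57), Cplx1 (-12.74 ± 0.48), Syt1 (-12.06 ± 0.34) and Bsn (-11.13 ± 0.33) had the largest folds, which are a SNARE protein, a complexin, the calcium sensor of release and the active zone scaffold bassoon. Of 17 tested glutamate receptors and scaffold genes, 15 were called higher in brain (median -7.25). Camk2a measured 53.4 and 142 CPM in left ventricle and 7618, 7932, 6361 and 6234 CPM in brain. This calcium-dependent kinase of the postsynaptic density was far above the left ventricle in all brain libraries, yet had 2914 reads in the left ventricle libraries. Shank2 (-10.01 ± 0.23), Dlgap3 (-9.94 ± 0.50) and Gria1 (-9.84 ± 0.60) were among those called. Homer1 was found at 38.8 and 61.5 CPM in left ventricle, compared with 50.9, 47.4, 103 and 76.9 CPM in brain. The groups overlapped for this postsynaptic scaffold, and it was not called (adjusted p = 0.144).

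Genes of inhibitory transmission were called higher in brain in 13 of 14 cases, with a median of -10.22, or -8.86 with genes at 0 set to their bound. Gabbr1 stood at 49.3 and 51.6 CPM in left ventricle and at 1256, 1262, 1289 and 1293 CPM in brain. This subunit of the GABA B receptor had the highest mean level and the smallest fold of those called (-4.66 ± 0.16). Slc32a1 had 0 CPM in both left ventricle libraries, against 121, 129, 123 and 138 CPM in brain, and this vesicular GABA transporter was at least 1408-fold higher in brain. Gad2, the smaller glutamate decarboxylase, was at least 478-fold higher in brain. The receptor subunit Gabra5 was at least 570.3-fold higher in brain. Gphn measured 158 and 156 CPM in left ventricle and 261, 168, 158 and 204 CPM in brain, and gephyrin, a scaffold protein with a metabolic role outside the nervous system, was not called (log2 fold -0.33 ± 0.21).

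All 18 genes of the axon and dendrite cytoskeleton were called higher in brain (median -7.27). Mtap1a was found at 89.8 and 18.9 CPM in left ventricle, compared with 2668, 2884, 2996 and 2788 CPM in brain. This microtubule-associated protein had the highest mean level of the list. Ina stood at 0 CPM in both left ventricle libraries and at 195, 198, 205 and 199 CPM in brain, and alpha-internexin, an intermediate filament protein of neurons, was at least 2186-fold higher in brain. Further members were Stmn3 (-11.07 ± 0.38), Nefl (-10.80 ± 0.37) and Kif5a (-9.18 ± 0.27), a stathmin, the light neurofilament and a neuronal kinesin. Among neuronal and glial transcription factors, 15 of 16 were called higher in brain, with a median of -8.93, or -7.60 with genes at 0 set to their bound. Zfp238 had 42.4 and 70.3 CPM in left ventricle, against 367, 365, 253 and 261 CPM in brain, the highest mean level of the list. Neurod2 measured 0 CPM in both left ventricle libraries and 323, 296, 144 and 180.4 CPM in brain, and was at least 2681-fold higher in brain. Neurod6 and Fezf2 were at least 1275-fold and 727-fold higher. The list includes Olig2 and Sox10, which mark the oligodendrocyte lineage.

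Neuronal RNA-binding proteins were called higher in brain in 11 of 12 cases (median -5.26). Celf5 was found at 1.30 and 0.996 CPM in left ventricle, compared with 577, 551, 538 and 598 CPM in brain. Rbfox3 stood at 0.0501 and 0 CPM in left ventricle and at 416, 415, 463 and 482 CPM in brain, and this splicing factor, known as NeuN, had a ratio of 14597 with a 95% counting interval of 2619.7 to 576563. Elavl3 (-9.40 ± 0.16) and Celf4 (-7.12 ± 0.41) were also called. Ptbp2 had 39.9 and 44.8 CPM in left ventricle, against 32.6, 36.1, 32.7 and 33.4 CPM in brain, and the neuronal polypyrimidine tract protein lay slightly higher in the left ventricle, below the fold threshold (0.33 ± 0.10, adjusted p = 0.0287). All 10 myelin genes, which are the oligodendrocyte markers as well, were called higher in brain, with a median of -7.30, or -6.17 with genes at 0 set to their bound. Mbp measured 9.46 and 6.05 CPM in left ventricle and 2416, 2771, 1625 and 1842 CPM in brain. Mobp was found at 0 CPM in both left ventricle libraries, compared with 119, 135, 85.7 and 102 CPM in brain, and was at least 1235-fold higher in brain. Ermn was at least 54.1-fold higher in brain and Mag a log2 fold of -9.18 ± 0.51. Mbp and Mobp encode structural proteins of myelin, and their hippocampus libraries lay above those of PFC. Of 105 distinct members of the brain lists, 100 were called higher in brain, against 29.4% of all tested genes. The fit limited to the 8667 genes with 100 reads in all 6 libraries left out the members below that minimum. It called 22 members, and 1909 of all its genes, higher in brain.

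Genes used by all cells were mostly not called, whereas 59.4% of all tested genes were called in either direction. Of 21 ribosomal protein genes, 4 were called higher in left ventricle, 1 higher in brain and 16 not called (median 0.41). Without overlap of libraries, 12 of the 21 lay higher in left ventricle and 3 higher in brain, against 40.9% and 43.5% of all tested genes. In the CHF left ventricle 19 of the 21 were above sham, against 50.7% of all tested genes. Rpl4 stood at 323 and 233 CPM in left ventricle and at 61.3, 79.4, 89.5 and 85.4 CPM in brain. Rpl4 (1.83 ± 0.17), Rplp0 (1.91 ± 0.11) and Rps9 (1.08 ± 0.13) were among those higher in left ventricle and Rpl19 (-1.24 ± 0.17) higher in brain. These genes have many processed copies in the genome, and unique reads cover them only in part. Of 14 tested reference genes, 4 were called higher in left ventricle, among them Sdha (2.63 ± 0.27), Tfrc (2.62 ± 0.14) and Gusb (1.23 ± 0.27), Ywhaz (-2.61 ± 0.19) was higher in brain and 9 were not called. Sdha had 1177 and 2245 CPM in left ventricle, against 212, 245, 318 and 352 CPM in brain. This subunit of succinate dehydrogenase was lower in the CHF than in the sham left ventricle. Gapdh measured 8.66 and 15.0 CPM in left ventricle and 16.8, 22.2, 17.8 and 20.4 CPM in brain, but its unique gene reads, 173 to 524 per library, were a minority of its 996 to 1592 total gene reads. Tbp was found at 14.7 and 13.8 CPM in left ventricle, compared with 15.8, 15.9, 17.0 and 16.2 CPM in brain, and this general transcription factor was not called (-0.18 ± 0.11, adjusted p = 0.167).

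Paralog pairs were examined next. A list of 89 pairs, each made up of a heart member and a brain member, gave 85 pairs with both members tested. These names are labels of the list and do not mean that a member is specific to heart or to the nervous system. Some brain members are broadly expressed or known from muscle, such as Csrp1, Sgce and Casq1, and some heart members are widespread, such as Kif5b and Prkar1a. A pair was said to switch when its heart member was called higher in left ventricle, its brain member was called higher in brain, and the left ventricle libraries did not overlap with the brain libraries for either. Such calls without overlap were made for 29.6% of all genes in the direction of the left ventricle and for 29.3% in the direction of brain. Of the 85 pairs, 46 switched (54.1%), and 45 did so with total gene reads or with exon reads. Of 86 tested heart members, 67 were called higher in left ventricle and 5 higher in brain, with a median log2 fold of 3.41. Of 88 tested brain members, 67 were called higher in brain and 9 higher in left ventricle, with a median of -3.65. The pairs were chosen with earlier results of these data known, so these shares describe the list.

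The difference between the log2 folds of the members, in which gene length cancels, had a median of 8.93 over the 46 switching pairs, or 8.79 with genes at 0 set to their bound. Among the 41 switching pairs with more than 3 reads of each member in each tissue, it ranged from 2.48 for Pfkm and Pfkp to 21.20 for Ckmt2 and Ckmt1. Many members passed the read minimum only in one tissue. Of the 46 brain members, 21 had under 100 reads in both left ventricle libraries, and 14 of the 46 heart members had under 100 reads in every brain library. With both members required to have 100 reads in all 6 libraries, 12 pairs switched. By family, 6 of 13 tested pairs of contractile and cytoskeletal proteins, 12 of 16 of energy metabolism, 3 of 6 of the respiratory chain, 7 of 11 of calcium handling, 8 of 14 of channels and transporters, 6 of 11 of signaling, 4 of 8 of membrane traffic and 0 of 6 of RNA binding and translation switched. Reads were also divided by exon length (GENCODE vM21) to ask which member dominated. In 34 of the 46 pairs the heart member held the larger share in both left ventricle libraries and the brain member in all brain libraries. The counts include reads in introns, and with the genomic span in place of exon length 29 did so. Per exon length, the pairs led by Camk2d, Nos3, Cacnb2, Fabp3, Prkar2a and Acacb were among those that did not.

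**Figure D2:**
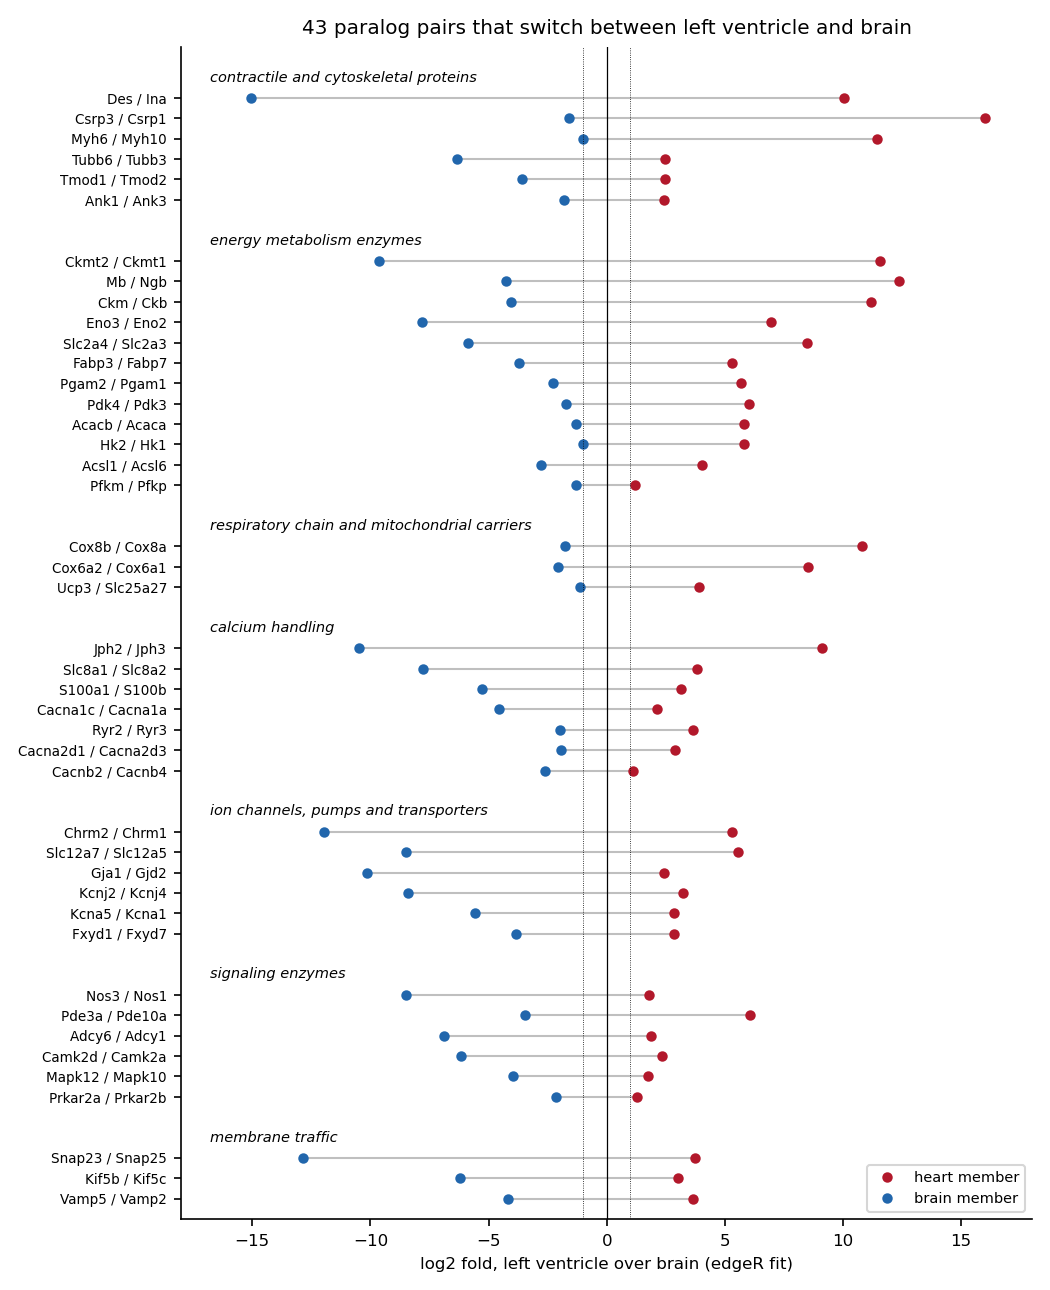
Log2 fold of left ventricle over brain (x axis) for the heart member and the brain member of 43 of the 46 switching pairs, red and blue points joined by a line, with dotted lines at -1 and 1. The members of a pair lie on opposite sides of 0, from Pfkm and Pfkp with a difference of 2.48 to Des and Ina with a fitted difference of 25.10, in which Ina had no reads in the left ventricle.

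Energy metabolism had the largest share of switching pairs. Ckm stood at 832 and 1769 CPM in left ventricle and at 0.327, 0.212, 1.13 and 1.07 CPM in brain. Ckb had 65.5 and 30.2 CPM in left ventricle, against 662, 686, 919 and 915 CPM in brain. The muscle creatine kinase was higher in left ventricle (log2 fold 11.19 ± 0.42) and the brain form lower (-4.03 ± 0.38), and no library of one tissue reached those of the other. Of the reads of both per exon length, Ckm made up 92.7% and 98.3% in the CHF and sham left ventricle and 0.0306% to 0.122% in brain. Ckmt2 measured 956 and 1665 CPM in left ventricle and 0.327, 0.212, 0.876 and 0.512 CPM in brain. Ckmt1 was found at 0.400 and 0.0766 CPM in left ventricle, compared with 212, 237, 232 and 202 CPM in brain. The mitochondrial creatine kinases, which pass phosphate to creatine at the inner membrane, thus differed in the same manner, with log2 folds of 11.55 ± 0.38 and -9.65 ± 0.39. Ckmt1 had 9 reads in the left ventricle libraries together.

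Enolase, which forms phosphoenolpyruvate in glycolysis, switched from the muscle form Eno3 to the neuronal form Eno2. Eno3 stood at 676 and 1480.2 CPM in left ventricle and at 7.66, 8.72, 9.28 and 8.93 CPM in brain. Eno2 had 8.96 and 1.84 CPM in left ventricle, against 1152, 1291, 1358 and 1199 CPM in brain. The folds were 6.96 ± 0.35 and -7.81 ± 0.77, and of the reads of both per exon length Eno3 made up 99.5% and 99.95% in the CHF and sham left ventricle and 1.77% to 1.97% in brain. Mb measured 8920.2 and 12722 CPM in left ventricle and 1.09, 1.44, 3.40 and 3.20 CPM in brain. Ngb was found at 0.501 and 0 CPM in left ventricle, compared with 5.08, 5.33, 5.26 and 7.17 CPM in brain. Myoglobin, the oxygen store of muscle, was among the most abundant transcripts of the left ventricle (12.37 ± 0.32), whereas its neuronal relative neuroglobin had low levels in brain and 10 reads in left ventricle (-4.25 ± 0.66). The largest adjusted p among the 8 genes was 0.00161.

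The other switching enzymes had smaller opposition. Slc2a4, the insulin-responsive glucose transporter, and Slc2a3, the neuronal one, had log2 folds of 8.48 ± 0.36 and -5.87 ± 0.42. The fatty acid-binding proteins were Fabp3 (5.32 ± 0.19) and Fabp7 (-3.72 ± 0.27), although Fabp7 was low in all libraries (0.300 and 0.383 CPM in left ventricle and 3.46 to 6.05 CPM in brain). Phosphoglycerate mutases were Pgam2 (5.67 ± 0.20) and Pgam1 (-2.28 ± 0.12), and most Pgam1 reads were shared, with 92 to 891 unique of 941 to 13972 total gene reads. Pyruvate dehydrogenase kinases, which hold back glucose oxidation, were Pdk4 (6.00 ± 0.22) and Pdk3 (-1.73 ± 0.40). Acetyl-CoA carboxylases were Acacb (5.80 ± 0.31) and Acaca (-1.28 ± 0.14), the mitochondrial and the cytosolic form. Long-chain acyl-CoA synthetases were Acsl1 (4.03 ± 0.28) and Acsl6 (-2.78 ± 0.39). Hexokinases were Hk2 (5.81 ± 0.25) and Hk1 (-1.01 ± 0.13), and Hk1 stood at 373 and 337 CPM in left ventricle and at 668, 754, 719 and 712 CPM in brain. The fold of Hk1 lay at the threshold and was -0.96 without the hippocampus sham library and -0.94 without the left ventricle sham library.

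Phosphofructokinase, the pacemaker of glycolysis, showed the smallest difference of the switching pairs. Pfkm had 821 and 1473 CPM in left ventricle, against 439, 487, 547 and 539.6 CPM in brain. Pfkp measured 159 and 74.5 CPM in left ventricle and 208, 223, 370.4 and 381 CPM in brain. The muscle form predominated in both tissues per exon length, at 95.4% and 98.8% in the CHF and sham left ventricle and 85.0% to 89.7% in brain, so that the shift did not change the leading member. The folds were 1.19 ± 0.24 and -1.28 ± 0.32. Without the left ventricle sham library they were 0.71 and -0.84 and neither was called. With library totals in place of TMM the fold of Pfkm was 0.97, and against hippocampus alone that of Pfkp was -0.88.

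In 4 tested pairs of enzymes the members did not switch. Aldoa was found at 1422 and 1864 CPM in left ventricle, compared with 1177, 1490.4, 1299 and 1151 CPM in brain. Aldoc stood at 0.751 and 0 CPM in left ventricle and at 649, 729, 667 and 636 CPM in brain. The muscle aldolase was high in both tissues (log2 fold 0.36 ± 0.19, adjusted p = 0.131), and brain added aldolase C, which had 15 reads in left ventricle. Pygm had 1059 and 1826 CPM in left ventricle, against 32.2, 31.7, 35.0 and 33.5 CPM in brain. Pygb measured 979 and 1517 CPM in left ventricle and 392, 418, 254 and 232 CPM in brain. Both glycogen phosphorylases, the muscle and the brain form, were higher in left ventricle (Pygm 5.45 ± 0.24 and Pygb 1.99 ± 0.19). Ldhb was found at 499 and 953 CPM in left ventricle, compared with 149, 162, 269 and 241 CPM in brain. Ldha stood at 498 and 554 CPM in left ventricle and at 253, 262, 302 and 328 CPM in brain. The heart-type lactate dehydrogenase subunit was called (1.87 ± 0.26) and the other one was higher in left ventricle below the fold threshold (0.89 ± 0.11, adjusted p = 0.000598). Adssl1 had 99.97 and 136 CPM in left ventricle, against 11.1, 13.0, 18.6 and 18.9 CPM in brain. Adss measured 33.9 and 23.0 CPM in left ventricle and 31.1, 31.7, 39.6 and 41.1 CPM in brain. Of these adenylosuccinate synthases, the muscle form was called (2.97 ± 0.15), and the other was not (adjusted p = 0.138).

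Incomplete pairs had 1 tested member. Cpt1c was found at 22.4 and 7.20 CPM in left ventricle, compared with 223, 226, 166 and 171 CPM in brain. This brain form of carnitine palmitoyltransferase was higher in brain (-3.70 ± 0.49), and its muscle relative Cpt1b had no unique reads. Ampd2 stood at 29.2 and 13.2 CPM in left ventricle and at 138, 133, 104 and 107 CPM in brain, and this AMP deaminase was also higher in brain (-2.48 ± 0.34). The muscle form Ampd1 had 1 read in left ventricle and 5 in brain.

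Cytochrome c oxidase, the last complex of the respiratory chain, has subunits with a heart and muscle form and a form found in other tissues. Cox8b had 123 and 194 CPM in left ventricle, against 0.0726, 0.127, 0.155 and 0 CPM in brain. Cox8a measured 70.7 and 58.7 CPM in left ventricle and 211, 223, 214 and 237 CPM in brain. The printed promoters belong to this pair, which had log2 folds of 10.80 ± 0.44 and -1.77 ± 0.13. Cox6a2 was found at 621 and 1011 CPM in left ventricle, compared with 1.56, 2.33, 3.09 and 2.05 CPM in brain. Cox6a1 stood at 72.0 and 59.7 CPM in left ventricle and at 251, 309, 289.6 and 263 CPM in brain. Subunit 6A switched likewise (Cox6a2 8.52 ± 0.32 and Cox6a1 -2.08 ± 0.16), and per exon length the heart form made up 89.9% and 94.6% in the CHF and sham left ventricle and 0.639% to 1.09% in brain. Cox7a1 had 122 and 225 CPM in left ventricle, against 0.327, 0.465, 1.08 and 1.07 CPM in brain. Cox7a2 measured 84.1 and 118 CPM in left ventricle and 44.1, 45.0, 51.7 and 55.0 CPM in brain. For subunit 7A both forms were higher in left ventricle (Cox7a1 8.05 ± 0.32 and Cox7a2 1.05 ± 0.15). The call of Cox7a2 was lost with library totals (0.84) and without the left ventricle sham library (0.78).

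Among mitochondrial carriers, the uncoupling proteins Ucp3 and Slc25a27 switched (Ucp3 3.92 ± 0.43 and Slc25a27 -1.14 ± 0.12). Slc25a4 was found at 2385 and 4079.5 CPM in left ventricle, compared with 253, 269.8, 304 and 323 CPM in brain. Slc25a5 stood at 76.9 and 71.7 CPM in left ventricle and at 54.9, 60.1, 58.8 and 55.7 CPM in brain. The heart form of the adenine nucleotide translocase was called (3.50 ± 0.24), and the other form was higher in left ventricle by a small amount (0.37 ± 0.09, adjusted p = 0.0119). Slc25a13 had 104 and 172 CPM in left ventricle, against 1.74, 1.35, 1.29 and 1.79 CPM in brain. Slc25a12 measured 146 and 267 CPM in left ventricle and 123, 126, 142 and 147 CPM in brain. Of these aspartate-glutamate carriers, Slc25a13 was higher in left ventricle (6.47 ± 0.27) and Slc25a12 overlapped between the tissues (adjusted p = 0.0516).

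**Figure D3:**
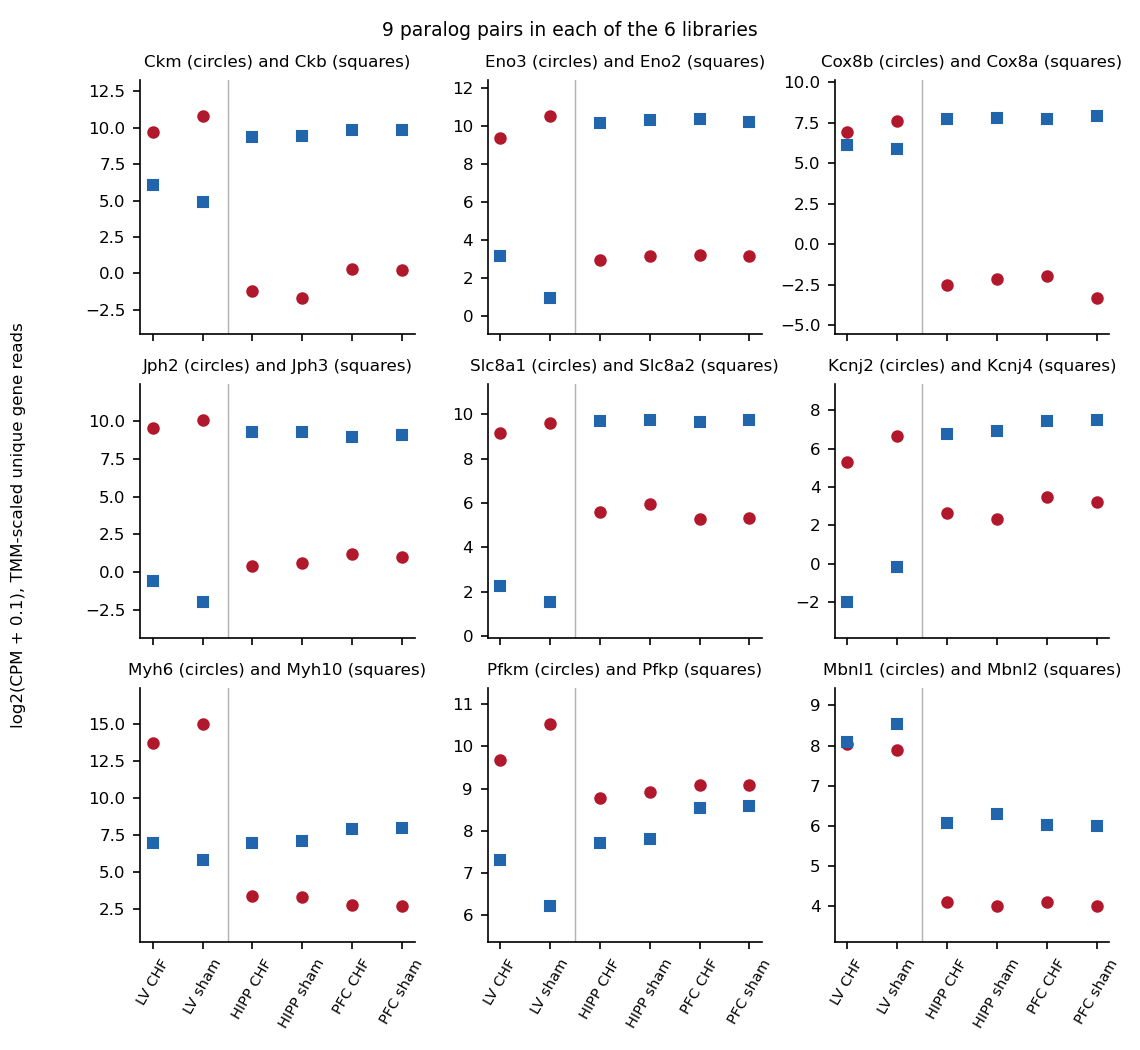
Level of both members of 9 pairs in each of the 6 libraries (y axis, log2 of CPM with a pseudocount of 0.1; x axis, the libraries), heart member as red circles and brain member as blue squares. Ckm, Eno3, Cox8b, Jph2, Slc8a1, Kcnj2 and Myh6 were high in both left ventricle libraries while their partners were on average higher in the brain libraries (Myh10 was about level between the CHF left ventricle and CHF hippocampus), Pfkm stayed above Pfkp in all 6 libraries, and Mbnl1 and Mbnl2 were both higher in left ventricle.

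Calcium handling had 7 switching pairs with unique gene reads, of which that of Cacna2d1 and Cacna2d3 did not switch with total gene or exon reads. Jph2 was found at 759 and 1072 CPM in left ventricle, compared with 1.20, 1.44, 2.16 and 1.88 CPM in brain. Jph3 stood at 0.551 and 0.153 CPM in left ventricle and at 612, 615, 505 and 543 CPM in brain. Junctophilins tether the plasma membrane to calcium stores, and the cardiac and the neuronal member had log2 folds of 9.13 ± 0.21 and -10.50 ± 0.39. Slc8a1 had 562 and 768 CPM in left ventricle, against 47.8, 62.7, 39.1 and 39.9 CPM in brain. Slc8a2 measured 4.66 and 2.84 CPM in left ventricle and 839, 846, 804 and 842 CPM in brain. The sodium-calcium exchanger changed from the cardiac form Slc8a1 (3.83 ± 0.18) to the brain form Slc8a2 (-7.77 ± 0.29), and Slc8a1 fell from 97.1% and 98.7% of both in left ventricle to 1.31% to 2.03% in brain. S100a1 was found at 335 and 396 CPM in left ventricle, compared with 41.9, 45.1, 43.3 and 35.8 CPM in brain. S100b stood at 2.65 and 1.07 CPM in left ventricle and at 71.7, 74.4, 84.1 and 69.4 CPM in brain. These calcium-binding proteins opposed each other (S100a1 3.14 ± 0.13 and S100b -5.26 ± 0.36), but S100a1 made up over 50% of the pair per exon length in brain too, at 52.4% to 56.4%.

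The ryanodine receptors, the calcium release channels, were Ryr2 (3.65 ± 0.30) and Ryr3 (-1.96 ± 0.30), with Ryr2 the leading form in both tissues (99.5% and 99.5% in the CHF and sham left ventricle and 72.0% to 88.4% in brain per exon length). Voltage-gated calcium channel subunits opposed each other at the pore (Cacna1c 2.12 ± 0.25 and Cacna1a -4.56 ± 0.14), at the beta subunit (Cacnb2 1.12 ± 0.25 and Cacnb4 -2.61 ± 0.32) and at the alpha2delta subunit (Cacna2d1 2.89 ± 0.19 and Cacna2d3 -1.95 ± 0.33). Cacnb2 had 58.2 and 109 CPM in left ventricle, against 44.9, 47.8, 30.4 and 33.7 CPM in brain. Its call was lost without the left ventricle sham library (0.59), against hippocampus alone (0.85) and with library totals (0.89). Cacna2d3 had 131 and 188 unique gene reads in left ventricle against 819 to 1106 in brain. Its total gene reads were 3452 and 5883 in left ventricle against 852 to 1146 in brain. With total gene reads its log2 fold was 2.86 and with exon reads 2.88, both higher in left ventricle, so that its direction depended on the reads counted.

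The remaining calcium pairs did not switch. Casq2 measured 1045 and 1403 CPM in left ventricle and 0.871, 0.931, 1.39 and 1.96 CPM in brain. Casq1 was found at 12.4 and 14.6 CPM in left ventricle, compared with 4.72, 3.05, 2.47 and 2.43 CPM in brain. Cardiac and skeletal calsequestrin, which buffer calcium in the store, were both higher in left ventricle (Casq2 9.95 ± 0.23 and Casq1 2.12 ± 0.21). The SERCA pumps Atp2a2 and Atp2a3 were both higher there as well. Atp2a3 stood at 46.6 and 34.3 CPM in left ventricle and at 17.7, 15.2, 16.9 and 18.8 CPM in brain, a log2 fold of 1.24 ± 0.16. Atp2b4 had 77.7 and 57.7 CPM in left ventricle, against 161, 157, 444 and 435 CPM in brain. Atp2b2 measured 1.60 and 1.61 CPM in left ventricle and 636, 636, 1312 and 1179.8 CPM in brain. These pumps of the plasma membrane were both higher in brain (Atp2b4 -1.96 ± 0.16 and Atp2b2 -9.11 ± 0.20). Itpr2 was found at 25.3 and 28.0 CPM in left ventricle, compared with 21.6, 21.7, 21.2 and 22.4 CPM in brain. Itpr1 stood at 89.7 and 76.0 CPM in left ventricle and at 227, 244, 523 and 535 CPM in brain. Of the inositol trisphosphate receptors, the neuronal form was called (-2.09 ± 0.13), and the cardiac form was below the fold threshold (0.29 ± 0.10, adjusted p = 0.0414).

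Ion channels and transporters set the electrical properties of both tissues. Kcnq1 had 31.7 and 68.1 CPM in left ventricle, against 3.34, 2.96, 4.79 and 3.93 CPM in brain. Kcnq1 carries the slow repolarizing current of the heart (3.75 ± 0.32). Chrm2 measured 56.5 and 99.1 CPM in left ventricle and 1.38, 1.31, 2.73 and 3.07 CPM in brain. Chrm1 was found at 0.150 and 0 CPM in left ventricle, compared with 417, 464, 343 and 326 CPM in brain. Chrm2, the muscarinic receptor of the vagal brake on the heart, had a log2 fold of 5.29 ± 0.25, and Chrm1, its cortical relative, had a ratio of 4303 with a 95% counting interval of 1472 to 20865.

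Slc12a7 stood at 305 and 464 CPM in left ventricle and at 9.18, 8.97, 8.25 and 6.75 CPM in brain. Slc12a5 had 2.80 and 3.37 CPM in left ventricle, against 946, 969, 1206 and 1315 CPM in brain. Of these potassium-chloride cotransporters, Slc12a5 keeps neuronal chloride low (Slc12a7 5.54 ± 0.20 and Slc12a5 -8.48 ± 0.21). Gja1 measured 686 and 1221 CPM in left ventricle and 200.2, 197, 172 and 155 CPM in brain. Gjd2 was found at 0 CPM in both left ventricle libraries, compared with 6.53, 7.53, 6.60 and 6.15 CPM in brain. Connexin 43 joins heart muscle cells and astrocytes and was the larger member in brain too, at 87.6% to 89.6% of the pair per exon length. Connexin 36, the neuronal gap junction protein, was at least 73.8-fold higher in brain. The largest adjusted p among Kcnq1 and the 6 genes of these pairs was 0.000234.

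Further channel pairs switched with log2 folds given here as left ventricle over brain. Voltage-gated potassium channels were Kcna5 (2.84 ± 0.17) and Kcna1 (-5.57 ± 0.55). Inward rectifiers were Kcnj2 (3.23 ± 0.37) and Kcnj4 (-8.43 ± 0.46). The sodium pump regulators were Fxyd1 (2.86 ± 0.12) and Fxyd7 (-3.82 ± 0.19), of which Fxyd1 is phospholemman.

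Hcn4 and Clcn1 were called higher in left ventricle although the libraries of the tissues overlapped. Hcn4 stood at 6.26 and 17.7 CPM in left ventricle and at 2.80, 2.33, 7.22 and 6.36 CPM in brain. The pacemaker channel Hcn4 was called (1.51 ± 0.41), but its CHF left ventricle value lay below both PFC values. Clcn1 had 5.66 and 28.1 CPM in left ventricle, against 4.17, 2.20, 3.92 and 6.36 CPM in brain. Clcn2 measured 9.01 and 10.6 CPM in left ventricle and 113, 108, 105 and 112 CPM in brain. The chloride channel Clcn1 was high in the sham left ventricle alone, and its fold of 2.03 ± 0.64 was 0.46 without that library. The fold of Hcn4 was 0.58 without it. Neither was called then. The call of Clcn1 was also lost without any single brain library (1.85 to 2.31), and that of Hcn4 without the hippocampus sham (1.45) or the PFC sham library (1.47).

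The beta subunits of the sodium pump did not switch. Atp1b1 was found at 264 and 296 CPM in left ventricle, compared with 1637, 1685, 1476 and 1381 CPM in brain. Atp1b2 stood at 34.3 and 37.9 CPM in left ventricle and at 558, 575, 491 and 440.1 CPM in brain. Both beta subunits were higher in brain (Atp1b1 -2.46 ± 0.15 and Atp1b2 -3.83 ± 0.14).

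Abcc9 had 231 and 576 CPM in left ventricle, against 3.99, 3.00, 6.13 and 4.31 CPM in brain. Abcc8 measured 40.3 and 81.4 CPM in left ventricle and 69.3, 65.5, 55.9 and 57.7 CPM in brain. These sulfonylurea receptors are regulatory subunits of ATP-sensitive potassium channels, and Abcc9 was higher in left ventricle (6.56 ± 0.42) while Abcc8 was not called (-0.03 ± 0.28). Kcnip2 was found at 25.5 and 87.8 CPM in left ventricle, compared with 119, 104, 61.7 and 60.3 CPM in brain. Kcnip4 stood at 2.85 and 4.52 CPM in left ventricle and at 38.6, 30.5, 51.0 and 51.4 CPM in brain. Of these partners of Kv4 channels, Kcnip4 was higher in brain (-3.53 ± 0.25), and Kcnip2, the cardiac one, overlapped (-0.55 ± 0.47, adjusted p = 0.320). Kcnh2 had 71.0 and 148 CPM in left ventricle, against 50.4, 52.3, 65.1 and 72.4 CPM in brain, and this channel of rapid repolarization was below the fold threshold (0.88 ± 0.28, adjusted p = 0.0297). Its partner Kcnh7 was not tested, at 0.250 and 0.843 CPM in left ventricle and 2.47 to 5.25 CPM in brain.

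Contractile and cytoskeletal proteins had 6 switching pairs. Des and Ina, intermediate filament proteins of muscle and of neurons, switched, with Des at a log2 fold of 10.06 ± 0.20. Ina, without a read in left ventricle, had 195 to 205 CPM in brain. Csrp3 had 26629 reads in left ventricle and 1 read in brain. Csrp1 measured 101 and 49.4 CPM in left ventricle and 229.6, 262, 218 and 209 CPM in brain, and this broadly expressed relative was higher in brain (-1.60 ± 0.31). Myh10 was found at 124 and 55.5 CPM in left ventricle, compared with 126, 139, 244 and 248 CPM in brain. Non-muscle myosin 10 had a log2 fold of -1.01 ± 0.33 against 11.45 ± 0.52 for Myh6. The CHF left ventricle and the CHF hippocampus library were nearly level for Myh10, and its call was lost when any library other than that of the CHF left ventricle was left out, with folds from -0.55 to -1.04.

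Smaller switches were those of tropomodulin (Tmod1 2.47 ± 0.15 and Tmod2 -3.60 ± 0.38), ankyrin (Ank1 2.40 ± 0.18 and Ank3 -1.83 ± 0.15) and beta-tubulin (Tubb6 2.46 ± 0.11 and Tubb3 -6.35 ± 0.85). Tubb3 stood at 7.81 and 0.920 CPM in left ventricle and at 276, 334, 466 and 451 CPM in brain, and the 2 left ventricle libraries of this neuronal tubulin differed by 2.96 on the log2 scale.

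In other pairs 1 member was shared by both tissues. Actb had 653 and 354 CPM in left ventricle, against 1073, 1179, 859 and 764 CPM in brain. Cytoplasmic actin lay below brain in both left ventricle libraries, short of the fold threshold (-0.93 ± 0.27, adjusted p = 0.0226), and its partner Actc1 was almost absent from the brain libraries, with 1 read in brain. Actn2 measured 1982 and 2410.2 CPM in left ventricle and 18.1, 20.2, 12.6 and 13.5 CPM in brain. Actn1 was found at 113 and 35.8 CPM in left ventricle, compared with 114, 103, 133 and 123 CPM in brain. The muscle alpha-actinin was called (7.12 ± 0.16) and the non-muscle form overlapped (adjusted p = 0.212). Sgca stood at 110.3 and 187 CPM in left ventricle and at 0.617, 0.338, 0.206 and 0.470 CPM in brain. Sgce had 40.5 and 16.2 CPM in left ventricle, against 18.8, 18.4, 16.6 and 16.4 CPM in brain. Of the sarcoglycans, the muscle alpha form was called (8.48 ± 0.36) and the broadly expressed epsilon form was not (adjusted p = 0.106). Synpo2l measured 676 and 294 CPM in left ventricle and 0.653, 0.635, 1.34 and 0.854 CPM in brain. Synpo was found at 388 and 262 CPM in left ventricle, compared with 429.9, 466, 597 and 566 CPM in brain. The synaptopodin relative of the Z-disc was higher in left ventricle (9.17 ± 0.43), and synaptopodin was lower there by less than the threshold (-0.65 ± 0.19, adjusted p = 0.0210).

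Lmod1 stood at 17.1 and 8.20 CPM in left ventricle and at 3.38, 3.00, 4.28 and 3.63 CPM in brain, so that both leiomodins were higher in left ventricle, Lmod1 by 1.84 ± 0.31. Mtap4 had 796 and 811 CPM in left ventricle, against 993, 1042, 595 and 561 CPM in brain. Mapt measured 125 and 147 CPM in left ventricle and 794, 770.4, 899.6 and 844 CPM in brain. Tau was higher in brain (-2.60 ± 0.15), while the microtubule protein Map4 lay between hippocampus and PFC in the left ventricle (0.07 ± 0.12). Dtna was found at 65.7 and 83.0 CPM in left ventricle, compared with 75.5, 75.9, 82.1 and 82.5 CPM in brain. Dtnb stood at 5.51 and 4.45 CPM in left ventricle and at 78.0, 77.1, 84.3 and 85.2 CPM in brain. Alpha-dystrobrevin was not called (adjusted p = 0.525), and beta-dystrobrevin was higher in brain (-4.02 ± 0.14). Sntg1 had 26.0 and 7.97 CPM in left ventricle, against 16.4, 15.0, 20.3 and 17.1 CPM in brain, and was not called. Its partner Sntb1, a syntrophin, was not tested, at 6.26 and 3.99 CPM in left ventricle and 0.897 to 1.78 CPM in brain.

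Signaling enzymes had 6 switching pairs. Nos3 measured 65.2 and 74.6 CPM in left ventricle and 18.1, 18.7, 21.8 and 22.3 CPM in brain. Nos1 was found at 0.200 and 0 CPM in left ventricle, compared with 70.5, 71.5, 28.6 and 30.4 CPM in brain. Endothelial nitric oxide synthase was higher in left ventricle (1.79 ± 0.10) and the neuronal form, with 4 reads in left ventricle, higher in brain (-8.51 ± 0.44). Pde3a stood at 39.6 and 99.6 CPM in left ventricle and at 1.45, 1.02, 0.670 and 1.07 CPM in brain. Pde10a had 7.61 and 4.68 CPM in left ventricle, against 79.4, 63.0, 65.4 and 64.8 CPM in brain. Of these phosphodiesterases, Pde3a is the main cardiac cyclic AMP form (Pde3a 6.05 ± 0.44 and Pde10a -3.45 ± 0.25). Adcy6 measured 351 and 586 CPM in left ventricle and 121, 117, 136 and 143 CPM in brain. Adcy1 was found at 7.81 and 15.5 CPM in left ventricle, compared with 1452, 1299.6, 1389 and 1398 CPM in brain. Adenylate cyclase changed from the cardiac form to the calmodulin-stimulated form of neurons (Adcy6 1.86 ± 0.21 and Adcy1 -6.90 ± 0.40). Camk2d stood at 161 and 225 CPM in left ventricle and at 26.2, 24.8, 56.3 and 56.6 CPM in brain, a log2 fold of 2.35 ± 0.15 against -6.17 ± 0.57 for Camk2a. Per exon length Camk2d made up 49.96% and 34.6% of this pair in the CHF and sham left ventricle, so it was not the leading member there.

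The regulatory subunits of protein kinase A of type II switched (Prkar2a 1.29 ± 0.10 and Prkar2b -2.17 ± 0.40), as did the kinases p38 gamma and JNK3 (Mapk12 1.77 ± 0.10 and Mapk10 -3.99 ± 0.25). Prkar1a had 885 and 735 CPM in left ventricle, against 678, 708, 731 and 688 CPM in brain. Prkar1b measured 4.81 and 3.30 CPM in left ventricle and 792, 897, 1539 and 1483 CPM in brain. For type I, the widespread alpha subunit was not called (0.21 ± 0.14) and the neuronal beta subunit was higher in brain (-8.11 ± 0.27). Camk2g was found at 70.3 and 90.7 CPM in left ventricle, compared with 242, 240.2, 388 and 385 CPM in brain. Camk2b stood at 83.5 and 59.1 CPM in left ventricle and at 2174, 2303, 1260.1 and 1234 CPM in brain. Both of these kinase subunits were higher in brain (Camk2g -1.92 ± 0.14 and Camk2b -4.55 ± 0.24). Gnai2 had 308 and 256 CPM in left ventricle, against 188, 199.8, 171 and 181 CPM in brain. Gnao1 measured 90.3 and 50.3 CPM in left ventricle and 1097, 1119, 1093 and 1104 CPM in brain. Of the inhibitory G protein subunits, Gnao1 was higher in brain (-3.97 ± 0.31), and Gnai2 was higher in left ventricle below the fold threshold (0.61 ± 0.11, adjusted p = 0.00367).

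Ppp1r1a was found at 1.00 and 1.99 CPM in left ventricle, compared with 120.1, 115, 92.1 and 92.0 CPM in brain. Ppp1r1b stood at 0 CPM in both left ventricle libraries and at 34.6, 31.3, 52.1 and 63.8 CPM in brain. Both inhibitors of protein phosphatase 1 were higher in brain, Ppp1r1a by a log2 fold of -6.17 ± 0.29 and Ppp1r1b, known as DARPP-32, by a factor of at least 491. Ppp2r2a had 42.9 and 46.0 CPM in left ventricle, against 48.6, 52.0, 49.4 and 46.0 CPM in brain. Ppp2r2c measured 6.61 and 18.2 CPM in left ventricle and 903, 936, 1106 and 1076 CPM in brain. The widespread regulatory subunit of protein phosphatase 2A was not called (-0.14 ± 0.10), and the brain subunit was higher in brain (-6.35 ± 0.53).

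In membrane traffic, Snap23 was found at 83.0 and 91.5 CPM in left ventricle, compared with 6.61, 6.09, 6.29 and 7.56 CPM in brain. Snap25 stood at 0.250 and 0 CPM in left ventricle and at 801, 963, 1526 and 1435 CPM in brain. The SNARE protein of general secretion gave way to that of synapses (Snap23 3.72 ± 0.12 and Snap25 -12.85 ± 0.57), and Snap25 had 5 reads in left ventricle. Kif5b had 216 and 164 CPM in left ventricle, against 15.0, 31.4, 24.8 and 23.2 CPM in brain. Kif5c measured 3.95 and 3.76 CPM in left ventricle and 234, 277, 315 and 337 CPM in brain. Kinesin heavy chains changed from the widespread to the neuronal form (Kif5b 3.01 ± 0.29 and Kif5c -6.22 ± 0.16). Vamp5 was found at 42.9 and 45.4 CPM in left ventricle, compared with 3.74, 3.85, 3.25 and 3.37 CPM in brain. Vamp2 stood at 104 and 118 CPM in left ventricle and at 1918, 2258, 2095 and 1872 CPM in brain. The muscle vesicle protein Vamp5 and synaptobrevin 2 opposed each other (Vamp5 3.64 ± 0.10 and Vamp2 -4.19 ± 0.20), yet Vamp2 held the larger share per exon length in left ventricle too.

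Stx4a had 65.4 and 59.9 CPM in left ventricle, against 31.8, 31.9, 39.3 and 39.3 CPM in brain. The syntaxin of general secretion was higher in left ventricle below the fold threshold (0.82 ± 0.09, adjusted p = 0.000339). Dnm2 measured 127 and 118 CPM in left ventricle and 121, 111, 99.8 and 106 CPM in brain. Dnm1 was found at 81.0 and 28.0 CPM in left ventricle, compared with 2071, 2230.0, 2088 and 2132 CPM in brain. Dynamin 2 was not called (adjusted p = 0.137) and the neuronal dynamin 1 was higher in brain (-5.28 ± 0.55). Cav3 stood at 47.9 and 64.2 CPM in left ventricle and at 0.617, 0.338, 0.155 and 0.128 CPM in brain. Cav1 had 292 and 388 CPM in left ventricle, against 7.22, 6.52, 8.45 and 7.39 CPM in brain. Both caveolins were higher in left ventricle (Cav3 7.71 ± 0.26 and Cav1 5.52 ± 0.16). Rtn2 measured 28.3 and 72.0 CPM in left ventricle and 101, 105, 105 and 118 CPM in brain. Rtn1 was found at 5.86 and 6.51 CPM in left ventricle, compared with 1302, 1385, 1374 and 1389.7 CPM in brain. Both reticulons were higher in brain (Rtn2 -1.10 ± 0.38 and Rtn1 -7.78 ± 0.20), and the call of Rtn2 was lost when any library other than that of the sham left ventricle was left out, with folds from -0.57 to -1.14.

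No pair of RNA-binding or ribosomal proteins switched. Rpl3l stood at 94.5 and 290.3 CPM in left ventricle and at 0.472, 0.592, 0.670 and 0.683 CPM in brain. Rpl3 had 19.9 and 8.81 CPM in left ventricle, against 20.3, 19.3, 20.6 and 17.8 CPM in brain. The muscle ribosomal protein Rpl3l was higher in left ventricle (8.31 ± 0.54), and the general form Rpl3 was not called (adjusted p = 0.266). Elavl1 measured 54.4 and 61.5 CPM in left ventricle and 79.2, 87.3, 77.8 and 61.5 CPM in brain. Elavl4 was found at 0.150 and 0.537 CPM in left ventricle, compared with 23.0, 27.6, 40.0 and 37.4 CPM in brain. The widespread HuR was not called (-0.40 ± 0.14, adjusted p = 0.0381) and the neuronal HuD was called (-6.64 ± 0.38). Mbnl1 stood at 262 and 236 CPM in left ventricle and at 17.1, 16.1, 17.2 and 16.1 CPM in brain. Mbnl2 had 273 and 369.6 CPM in left ventricle, against 67.7, 79.0, 64.8 and 63.4 CPM in brain. Both muscleblind proteins were higher in left ventricle (Mbnl1 3.90 ± 0.09 and Mbnl2 2.23 ± 0.15). Rbm38 measured 108 and 175 CPM in left ventricle and 6.21, 6.39, 4.17 and 4.01 CPM in brain, so that Rbm24 and Rbm38 were both higher there (Rbm24 3.61 ± 0.25 and Rbm38 4.80 ± 0.21). Rbpms2 was found at 31.2 and 40.2 CPM in left ventricle, compared with 3.63, 4.02, 3.04 and 3.59 CPM in brain. Rbpms stood at 154 and 208 CPM in left ventricle and at 5.48, 4.70, 5.52 and 5.25 CPM in brain. Both members were again higher in left ventricle (Rbpms2 3.32 ± 0.16 and Rbpms 5.11 ± 0.16). Neither Ptbp1 nor Ptbp2 was called.

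The direction of the tissue differences was then compared within CHF and within sham, each with 1 left ventricle library over the mean of 2 brain libraries, so that the difference between the conditions was not tested. Of the 13270 genes, 12183 (91.8%) had the same sign in both conditions. Of the 7876 called genes, 7870 did so. The 6 exceptions were Adamtsl2, C4b, Col8a2, Cpxm1, Mpeg1 and Thbs4, all above brain in CHF and below it in sham. In sham, Cpxm1 (-0.01) and Mpeg1 (-0.04) were about level with brain. C4b (-0.34), Adamtsl2 (-0.45) and Thbs4 (-0.50) lay less than 1 log2 unit below it. A further criterion, a log2 ratio of at least 1 in size in both conditions with opposite signs, was met by 30 genes, and all 30 were higher than brain in the CHF left ventricle and lower than brain in the sham left ventricle. Of these, Col8a2, a collagen of the vessel wall and cornea, was the 1 gene called over both conditions. Fmod had 332 and 1.15 CPM in left ventricle, against 32.6, 23.9, 37.8 and 27.7 CPM in brain. Fibromodulin, which organizes collagen fibrils, had a ratio of 3.24 in CHF and -4.38 in sham. Col8a2 measured 126 and 1.38 CPM in left ventricle and 4.25, 4.19, 5.41 and 3.29 CPM in brain, with ratios of 4.69 and -1.37.

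The other genes reported among those with the largest difference between conditions were mostly matrix or secreted proteins. Cilp2 was found at 23.6 and 0.230 CPM in left ventricle, compared with 5.48, 4.23, 3.76 and 3.46 CPM in brain. Col12a1 stood at 58.4 and 1.15 CPM in left ventricle and at 6.35, 7.02, 15.7 and 16.8 CPM in brain. Col11a1 had 8.56 and 0.0766 CPM in left ventricle, against 5.63, 3.47, 2.99 and 2.99 CPM in brain. These belong to cartilage and fibrillar matrix. Cthrc1 measured 11.8 and 0.153 CPM in left ventricle and 4.86, 3.30, 6.65 and 6.49 CPM in brain. Frzb was found at 146 and 5.21 CPM in left ventricle, compared with 29.5, 30.8, 23.4 and 21.6 CPM in brain. Cthrc1 is secreted by activated fibroblasts and Frzb binds Wnt ligands. Dio2 stood at 57.8 and 2.07 CPM in left ventricle and at 6.57, 14.4, 14.2 and 12.8 CPM in brain. Chrdl1 had 23.2 and 0.920 CPM in left ventricle, against 1.05, 1.90, 7.06 and 6.06 CPM in brain. Dio2 activates thyroid hormone and Chrdl1 binds bone morphogenetic proteins. Fibroblast and matrix markers made up 1.26% and 0.160% of unique gene reads in the CHF and sham left ventricle and 0.0337% to 0.0567% in the brain libraries, and all 12 of 12 were higher in the CHF than in the sham left ventricle. None of these 12 markers was at 0 in either left ventricle library. Their part in the 30 genes was not tested.

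**Figure D4:**
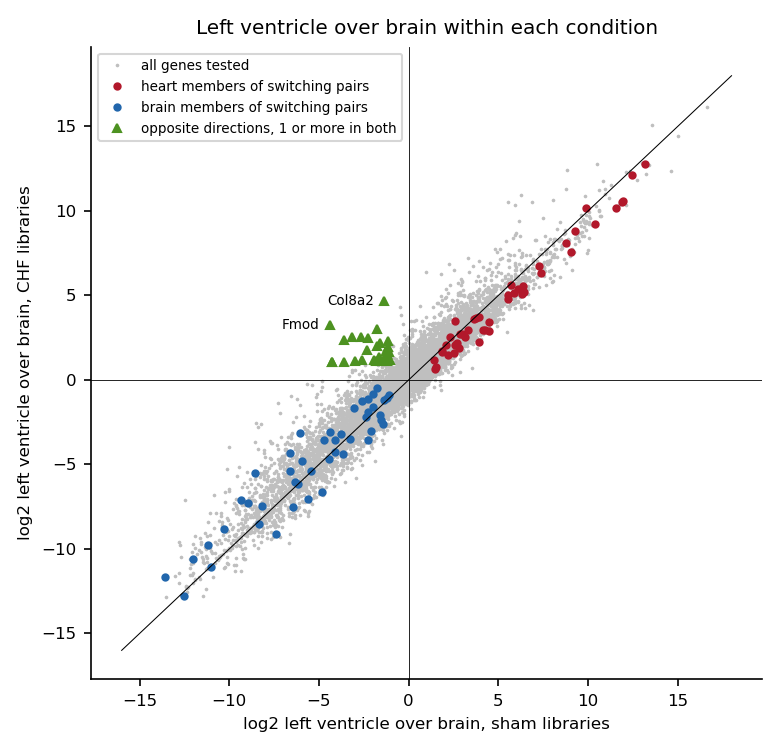
Log2 ratio of left ventricle over the mean of the brain libraries within sham (x axis) and within CHF (y axis), 1 point per tested gene, with the 30 genes of opposite direction as green triangles and the heart and brain members of switching pairs in red and blue. Most points follow the diagonal, and the triangles lie in the upper left, led by Fmod (-4.38 in sham, 3.24 in CHF).

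Within the left ventricle, the switching pairs had lower heart members in CHF. The CHF library lay below the sham library for 42 of 46 heart members, with a median log2 ratio of CHF over sham of -0.61, and above it for 28 of 46 brain members, with a median of 0.24. Over all tested genes, 50.7% were higher in the CHF left ventricle, and the median was 0.01. Des was among the 4 heart members that were not lower (0.18). Examples of pairs with both movements were Ckm at -1.09 and Ckb at 1.12, Eno3 at -1.13 and Eno2 at 2.23, Myh6 at -1.29 and Myh10 at 1.15, and Pfkm at -0.84 and Pfkp at 1.09. A lower heart member and a higher brain member in CHF were found together in 26 of 46 pairs, and the ratio of heart to brain member was lower in CHF in 34 of 46. The opposite was seen for Camk2a (-1.41), Kcna1 (-1.78) and Acsl6 (-1.29), brain members that were lower in CHF. Each condition had 1 library, so these are values without a test. With library totals in place of TMM, 35 heart members were lower and 32 brain members higher in CHF, beside 72.0% of all genes higher and a median of 0.28. Heart muscle markers were at 6.36% of reads in CHF and 8.31% in sham left ventricle, and fibroblast markers at 1.26% and 0.160%. Their part in these values was not tested.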

How the data were processed

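RNA of each pool was made into stranded total RNA libraries after removal of ribosomal RNA (Ribo-Zero) and sequenced on a HiSeq 2000 as single reads of 50 bases. The authors aligned the reads in CLC Genomics Workbench (version not given in the sources) to mouse genome build GRCm38.p1 and deposited, for each library, counts of unique and total gene reads over the whole gene, introns included. Unique gene reads were analysed here as deposited counts. They leave out reads that match several places, so genes with near-identical copies were counted in part, and overlapping genes can share reads. Tables of the authors' own comparisons, which hold RPKM values, fold changes and differences, were not used.

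Genes with at least 100 unique gene reads in at least 2 of the 6 libraries were scaled by TMM and fitted with edgeR 4.0.16 (R 4.3.3) by quasi-likelihood with 1 term each for left ventricle, hippocampus and PFC, which left 3 residual degrees of freedom. The contrast was left ventricle against the mean of both brain regions. P-values were adjusted by the Benjamini-Hochberg method over all 13270 genes, and a call needed an adjusted p under 0.05 and a log2 fold of 1 or more. DESeq2 1.42.0 was used as an alternative, with other scalings, filters, prior counts, reads and left-out libraries. On simulated data for this comparison with 13270 genes, 24 of 50 genes changed by a log2 fold of 1 were called, 47 of 50 at 1.5 and 50 of 50 at 2 and at 4, beside 2 of 13070 unchanged genes. The changed genes were drawn from those with higher counts, and all other genes were equal between the tissues. In the data 59.4% of genes were called, and some had 0 reads in a tissue. The simulated rates do not cover those settings. Depth was 15693919 to 25863685 unique gene reads per library. For a gene without reads in a tissue, a lower bound was taken against 3 reads over the group, and with 1 to 3 reads the ratio is given with an exact 95% counting interval.

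The genes named were the 10 with the largest fold in each direction among called genes with at least 1000 reads in every library of the higher tissue, the members of the paralog pairs, the most abundant and most changed members of each gene list, and the 10 genes with the largest opposite ratios in CHF and sham. Members and lists were chosen with earlier results of these data known. No source states whether the same mice gave the pools of different tissues. The deviations of pools of the same condition correlated by 0.01 between left ventricle and hippocampus, 0.03 between left ventricle and PFC and -0.00326 between hippocampus and PFC. With 1 CHF and 1 sham pool per tissue, these deviations hold the difference between CHF and sham. They cannot show whether the pools came from the same mice. Condition was not treated as a pairing in the main fit and was a replicate block in an alternative fit. All other steps ran in Python 3.11.15 (matplotlib 3.10.9, scipy 1.17.1, pandas 2.3.3, numpy 2.4.6). Promoter windows came from RefSeq. Some genes counted in the lists and pairs are not reported here.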

Additional observations from a re-analysis of the deposited data

Results flagged for a closer look

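Of the 30 genes at least 1 log2 unit above brain in the CHF left ventricle and at least 1 below it in sham, 9 of those with the largest difference are given. The log2 ratio of left ventricle over brain was higher in CHF than in sham by 7.61 for Fmod, 6.05 for Col8a2, 5.95 for Cilp2, 5.68 for Col12a1, 5.32 for Col11a1, 5.30 for Cthrc1, 5.22 for Dio2, 4.82 for Chrdl1 and 4.76 for Frzb. Each condition had 1 left ventricle library, so these differences were not tested.

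Of 101 genes examined among the 4 brain libraries, 2 had a single library that stood apart. Ngb was high in the PFC sham library, whose gap to the next made up 0.862 of the range. Pde10a was high in the hippocampus CHF library, with a gap of 0.841 of the range. Both lay past the 95% critical value of Dixon's test for 4 values, and chance passes it in about 1 of 20 groups.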

How the results depend on the processing

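The counts of calls depended most on the read minimum and the fold threshold. With 100 reads required in all 6 libraries, which removes genes absent from one tissue, 2224 genes were called higher in left ventricle and 1909 higher in brain, with 12 switching pairs, 42 heart list members and 22 brain list members. With a log2 fold of 2 or more, the counts were 2336 and 2403 genes and 30 pairs. Without a read minimum, 5574 and 5517 genes were called, with 46 pairs, and without a minimum fold 5328 and 5508 genes, with 51 pairs. Leaving out 1 library in turn gave 3902 to 3999 and 3829 to 4183 genes, 42 to 51 pairs, 82 to 84 heart list members and 98 to 100 brain list members. Library totals in place of TMM moved the median fold of all genes from -0.03 to -0.22 and the share of calls higher in left ventricle from 50.4% to 45.4%.

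With condition as a replicate block, 3928 genes were called higher in left ventricle and 3923 higher in brain, with 46 pairs, 83 heart list and 100 brain list members. The call of Clcn1 was lost under the block (1.79).

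Over 184 named genes and up to 19 alternatives, 3294 of 3410 values kept direction and call, 67 lost the call, 25 gained it and 24 changed sign. Cacna2d3 was higher in left ventricle by total (2.86) and exon reads (2.88). The others that changed sign were not called in the main fit, where their log2 folds were under 1 in size. Sntg1 was at -0.00858 with DESeq2 size factors, -0.12 with library totals, -0.0204 with DESeq2, -0.14 without a filter, -0.11 with 100 reads in all libraries, -0.15 with the block, -0.00662 with 2 groups and -0.12 against PFC alone. Mtap4 was at -0.12 with library totals, -0.0640 without a filter, -0.0626 with 100 reads in all libraries and -0.34 against hippocampus alone. Dnm2 was at -0.0115 with library totals and Abcc8 at 0.10 against PFC alone. With 1 library left out, the lowest and highest folds were -1.09 and 0.60 for Sntg1, -0.62 and 0.40 for Abcc8, -0.27 and 0.0793 for Dtna, -1.70 and 0.10 for Kcnip2, -1.14 and 0.0307 for Rpl3, and -0.10 and 1.21 for Sgce. The causes were not tested. With 1 pool per tissue and condition, differences between CHF and sham cannot be told apart from differences between pools.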

Other observations

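Cell types other than heart muscle and neurons also differed between the tissues. All 12 fibroblast and matrix markers were called higher in left ventricle, against 29.9% of all tested genes, with a median log2 fold of 7.04. Without overlap of libraries, 11 of the 12 lay higher in left ventricle, against 40.9% of all tested genes. Bgn measured 2629 and 265 CPM in left ventricle and 21.6, 19.1, 17.8 and 16.1 CPM in brain. Biglycan had the highest mean level, and Postn (10.37 ± 1.37), Mfap5 (10.08 ± 1.32) and Dpt (9.09 ± 0.64) had the largest folds. All 9 tested markers of smooth muscle and pericytes were called higher in left ventricle (median 3.55). They include Des (10.06), which is also in the Z-disc list, and Abcc9 (6.56), also a heart member of the pairs. This list is therefore not separate from heart muscle. Endothelial markers were called higher there in 9 of 12 cases, against 29.9% of all tested genes. Cdh5 was found at 299 and 441 CPM in left ventricle, compared with 20.1, 18.9, 23.3 and 22.0 CPM in brain. Slco1a4 and Slc2a1, transporters of the blood-brain barrier, were called higher in brain (Slco1a4 -3.33 ± 0.40 and Slc2a1 -1.95 ± 0.16). Slco1a4 stood at 0.451 and 1.30 CPM in left ventricle and at 7.37, 7.49, 8.66 and 9.95 CPM in brain. The endothelial markers together made up 0.185% and 0.188% of unique gene reads in the CHF and sham left ventricle and 0.0376% to 0.0461% in the brain libraries.

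Markers of macrophages and microglia were split. Lyz2, Mrc1, Cd163 and Cd68 were called higher in left ventricle, as were 29.9% of all tested genes, and the other 6 of 10 tested markers were not called. Together the markers made up 0.114% and 0.0317% of unique gene reads in the CHF and sham left ventricle and 0.0327% to 0.0374% in the brain libraries. In the CHF left ventricle 9 of the 10 were above sham, against 50.7% of all tested genes. Lyz2 had 393 and 113 CPM in left ventricle, against 5.70, 4.44, 4.74 and 4.83 CPM in brain. Mrc1 measured 95.9 and 38.9 CPM in left ventricle and 0.762, 0.508, 0.670 and 0.598 CPM in brain. Cx3cr1 was found at 40.2 and 8.05 CPM in left ventricle, compared with 62.9, 64.5, 61.6 and 59.3 CPM in brain. The left ventricle values of Lyz2 and Mrc1, which mark tissue macrophages, exceeded those of every brain library. Of 10 astrocyte markers, 8 were called higher in brain, Gja1 was called higher in left ventricle and Slc4a4 was not called. Over all tested genes, 29.4% were called higher in brain. Gfap stood at 0.350 and 0.0766 CPM in left ventricle and at 439, 443, 99.3 and 97.0 CPM in brain. Slc1a2 had 2.15 and 0.613 CPM in left ventricle, against 784, 942, 965 and 955 CPM in brain. Gfap is the intermediate filament and Slc1a2 the main glutamate transporter of astrocytes. Ttr measured 0.400 and 0.537 CPM in left ventricle and 42.3, 33.4, 0.928 and 0.854 CPM in brain. This choroid plexus transcript and Kl and Clic6 were called higher in brain, but only 2 of them without overlap of libraries. Aqp1, a water channel shared with endothelium, was called higher in left ventricle (9.16 ± 0.25). All 4 tested red blood cell genes were called higher in left ventricle (median 2.14), against 29.9% of all tested genes. Reads of the near-identical Hba-a1 and Hba-a2 are uncertain.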
